A study of Homo sapiens with 4 samples.

Results

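The genes described here encode plasma membrane and lysosomal carriers of amino acids and of closely related small molecules. They were taken by name alone, as every gene symbol that begins with SLC1A, SLC3A, SLC6A, SLC7A, SLC36A, SLC38A or SLC43A. The rule uses names and not values, although it was written with earlier results of these data known. The rule found 60 of the 20245 gene names in the count table and the table of TPM (transcript levels scaled by gene length and library total) together. Of these, 41 are in the count table, 39 passed the filter on low counts and were tested, and 19 are in the TPM table alone. The rule also took SLC7A6OS, which lies on the opposite strand of SLC7A6 and is not a transporter.

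Amino acids are charged or polar and cross membranes only through carriers, so a growing cell sets its supply through the carriers it makes. Sodium-coupled carriers such as those of SLC1A and SLC38A concentrate amino acids in the cell, and exchangers of SLC7A then trade this pool for other amino acids outside, with the light chain that does the transport joined to a heavy chain of SLC3A. Several of these genes are known targets of ATF4, a transcription factor whose translation rises when amino acids run short, and carriers of the lysosome report amino acid levels to the kinase complex mTORC1.

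RNA sequencing compared 2 FOXP4 KO libraries with 2 control libraries made from HEK293T cells, which derive from human embryonic kidney and carry the SV40 large T antigen. FOXP4 is a forkhead transcription factor, and the comparison asked which transcripts differ once it is lost. All cells were grown in DMEM with fetal bovine serum and antibiotics. The KO cells are described as a CRISPR-Cas9 knockout in the results text of the study, as cells given FOXP4-shRNA virus and selected with puromycin in its methods, and as a FOXP4 knock down in the sample labels, and the control is labelled only as control. Both KO titles carry the same line number, so the KO group was read as a single line. No source says that the libraries of a group came from separate cultures, so p-values reflect how far these libraries spread, and that spread may be technical only. In bulk RNA of this kind, fewer cells of a type and less RNA per cell cannot be told apart.

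FOXP4 itself had 713 and 886 counts in FOXP4 KO libraries 1 and 2, against 2562 and 2463 counts in control libraries 1 and 2. Its log2 fold change was −1.78 (standard error, SE, 0.185, edgeR adjusted p = 0.0038), and it was still counted in both KO libraries. The libraries held 41796690 and 42150257 counts in the KO group and 36393224 and 43057305 in the control group. Of the 14620 genes tested with edgeR's quasi-likelihood test, 25.8% passed an adjusted p of 0.05, with 13.8% higher and 12.1% lower in the KO group, and the median log2 fold change was 0.0085. Of 5 marker genes of the HEK293T line, INA and NEFM were higher, VIM was lower, and PAX2 and LHX1 did not pass. Of 13 marker genes of other cells, 4 are in the count table, 1 (HBA1, higher) was called, HBB was at 0 TPM in all 4 columns, PTPRC, CD3E and CDH5 were at 0 TPM in both KO columns, and the list summed to 21.6 and 16.5 TPM in FOXP4 KO cells, against 9.61 and 10.9 TPM in control cells. The part of these cells in the results below was not tested.

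Of the 39 tested transporter genes, 8 were higher in FOXP4 KO cells (20.5%, against the 13.8% of all genes), 5 were lower (12.8%, against 12.1%) and 26 did not pass. The higher genes were SLC43A1, SLC7A3, SLC1A4, SLC38A3, SLC38A2, SLC1A1, SLC6A6 and SLC38A1, and the lower genes were SLC6A8, SLC38A7, SLC1A3, SLC36A4 and SLC38A10. The median log2 fold change of the 39 was 0.30, with 25 above 0 and 14 below. Both KO libraries lay above both control libraries for 19 members and below both for 9, and the groups overlapped for 11, while 35.5% of all tested genes lay above and 33.2% below. All 13 called genes were among the 28 members with a mean of at least 10 CPM (counts scaled to a common library total after TMM normalization). The share of all tested genes called at this level was not worked out, so this is not read as a trait of the members. SLC43A1, SLC38A7 and SLC6A8 passed with each of the 4 libraries left out in turn, SLC36A4 and SLC38A10 passed in none of these 4 fits, and the other 8 passed in 1 or 2 of them. The counts of genes called higher and lower were 2 and 2 without FOXP4 KO library 1 (against 4.33% and 3.15% of all genes), 2 and 2 without FOXP4 KO library 2 (4.31% and 4.45%), 4 and 3 without control library 1 (8.07% and 7.24%), and 12 and 3 without control library 2 (13.6% and 10.9%). With upper-quartile scaling they were 8 and 3, against 16.3% and 9.36% of all genes.

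**Figure D1:**
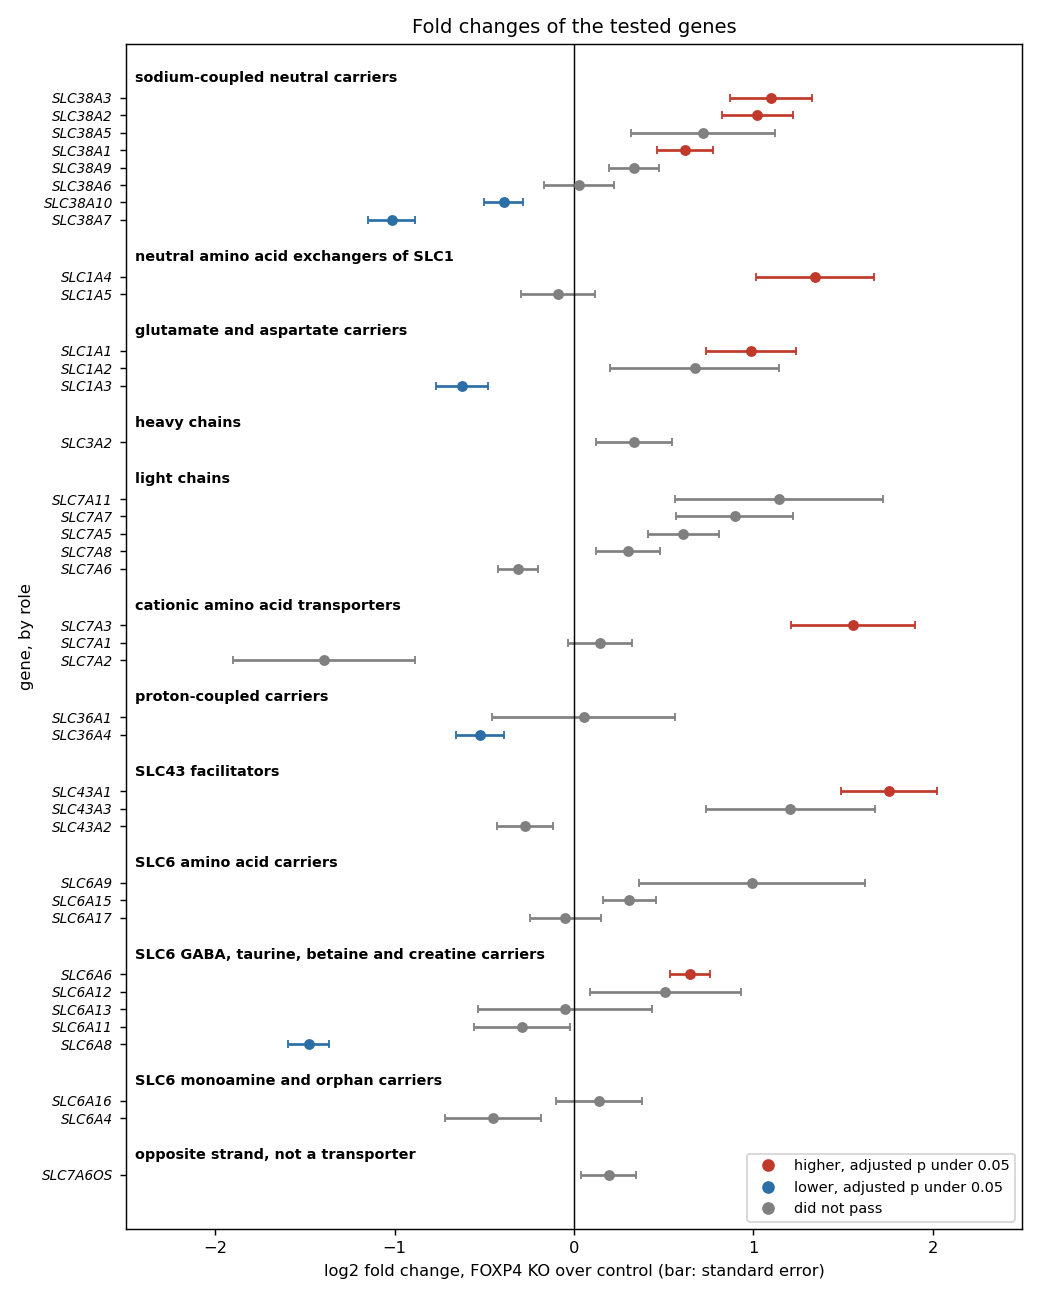
Log2 fold change of 38 of the 39 tested genes, FOXP4 KO over control, on the horizontal axis, with the genes grouped by role on the vertical axis. Bars are standard errors from edgeR, red points are the 8 genes called higher, blue points the 5 called lower and grey points the 25 shown that did not pass. The called genes run from 1.76 for SLC43A1 to −1.48 for SLC6A8.

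The sodium-coupled neutral carriers of SLC38A held 5 of the 13 called genes, 3 higher and 2 lower of 8 tested, against 13.8% higher and 12.1% lower of all genes. SLC38A2, a sodium-coupled carrier of alanine, serine, glutamine and other small neutral amino acids that cells make more of when amino acids run short, lies on the reverse strand of chromosome 12 at 46358189 to 46372867 (GRCh38, GENCODE v29 annotation, as all gene positions here). It had 396 and 266 CPM in FOXP4 KO libraries 1 and 2, against 169 and 157 CPM in control libraries 1 and 2. Both KO values lay above both control values, and the KO libraries were further apart than the control libraries. SLC38A2 rose by 1.02 on the log2 scale (SE 0.197, edgeR adjusted p = 0.0156). The edgeR adjusted p was 0.0675 without control library 1 and 0.0641 without control library 2.

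SLC38A1, the near neighbor of SLC38A2 on the same strand of chromosome 12 (46183063 to 46270017), carries glutamine and other neutral amino acids with sodium. It had 440 and 425 CPM in the FOXP4 KO libraries, against 243 and 320 CPM in the control libraries. The groups did not overlap, and control library 2 was the nearer to the KO values. SLC38A1 rose by 0.62 on the log2 scale (SE 0.156, edgeR adjusted p = 0.0338). It passed only without control library 2 (0.0194), and the edgeR adjusted p was 0.123 and 0.0948 without FOXP4 KO libraries 1 and 2 and 0.0976 without control library 1.

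SLC38A3, a sodium-coupled carrier of glutamine, histidine and asparagine best known from liver, kidney and brain, was the third gene of the family to rise. It lies on chromosome 3 at 50205246 to 50221486, forward strand, and had 14.2 and 17.9 CPM in the FOXP4 KO libraries, against 6.29 and 8.68 CPM in the control libraries. Every KO value was above every control value. The log2 fold change was 1.10 (SE 0.229, edgeR adjusted p = 0.0194), and the adjusted p without 1 library was 0.0549, 0.104, 0.0612 and 0.0203 for FOXP4 KO libraries 1 and 2 and control libraries 1 and 2, in that order.

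SLC38A7, a carrier that moves glutamine and asparagine out of the lysosome, fell. It lies on chromosome 16 at 58665109 to 58685104, reverse strand, and had 20.1 and 21.8 CPM in the FOXP4 KO libraries, against 41.6 and 43.2 CPM in the control libraries. Values within each group were close and the groups were far apart. SLC38A7 fell by 1.02 on the log2 scale (SE 0.130, edgeR adjusted p = 0.00586), and the adjusted p was at most 0.0386 with any single library left out.

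SLC38A10, a less studied member of the family on chromosome 17 (81245000 to 81295547, reverse strand), had 71.4 and 75.9 CPM in the FOXP4 KO libraries, against 95.6 and 97.6 CPM in the control libraries. The groups did not overlap. It fell by 0.39 on the log2 scale (SE 0.108, edgeR adjusted p = 0.0425), the smallest change among the called members, and its adjusted p was between 0.0719 and 0.213 with any single library left out. The other 3 tested genes of the family did not pass. SLC38A9, the lysosomal arginine sensor of mTORC1, had 27.0 and 25.2 CPM in the FOXP4 KO libraries, against 20.1 and 21.3 CPM in the control libraries (log2 fold change 0.34, edgeR adjusted p = 0.122). SLC38A5 and SLC38A6 had log2 fold changes of 0.72 and 0.03 (edgeR adjusted p = 0.228 and 0.924). SLC38A5 was near the floor, at 0.742 and 0.670 CPM in the FOXP4 KO libraries, against 0.339 and 0.509 CPM in the control libraries.

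**Figure D2:**
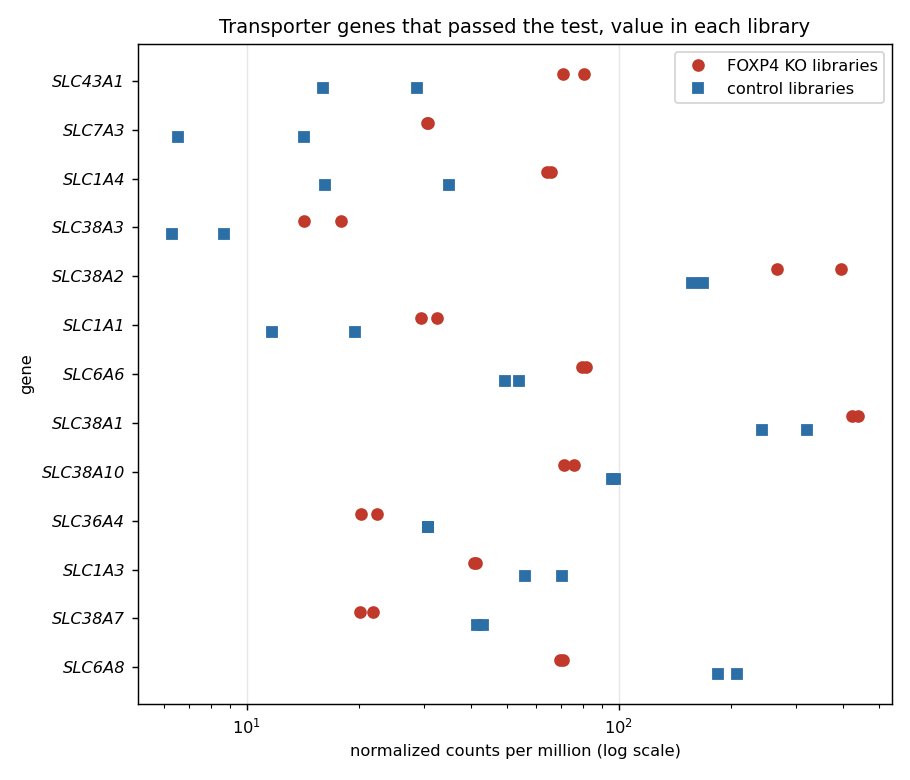
Normalized counts (CPM) of the 13 called genes on a logarithmic horizontal axis, with 1 red circle for each FOXP4 KO library and 1 blue square for each control library. Genes run from the largest increase at the top, SLC43A1, to the largest decrease at the bottom, SLC6A8. In every gene shown the KO circles and the control squares do not overlap.

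Promoters were searched for the core of the amino acid response element, a composite C/EBP-ATF site through which ATF4 acts, because SLC38A2 and several other members are known for this control. RefSeq promoter windows (GRCh38.p14, 250 bases before to 50 after the start) were at hand for 45 of the 60 members. The letters TGATGNAA, on either strand (TTNCATCA on the reverse), were found in 4 of the 45 windows (8.89%), against 1003 of 27305 windows of all genes (3.67%). These were the windows of SLC1A3, SLC38A1, SLC3A2 and SLC7A1. SLC1A3 was lower, SLC38A1 was higher and SLC3A2 and SLC7A1 did not pass. A core of forkhead sites, TGTTTAC or GTAAACA on the reverse strand, was found in 0 of the 45 windows, against 931 of 27305 (3.41%). A match of this kind is a description of letters and not a shown site. Letters more than 50 bases past the start, such as those of introns further in, were not searched. A member without a match may therefore hold such a site elsewhere. The windows of the called pair SLC38A1 and SLC1A3 are printed from 250 bases before the start to 10 bases from it, 5′ to 3′ on the gene's own strand, with the match in capitals, 4 bases before the RefSeq start and reaching across it in SLC38A1 and 220 bases before the start in SLC1A3. The SLC38A1 window is chr12:46266507-46266766 on the reverse strand, inside the GENCODE v29 span of the gene, and the SLC1A3 window is chr5:36596338-36596597 on the forward strand, upstream of the GENCODE v29 span.
SLC38A1: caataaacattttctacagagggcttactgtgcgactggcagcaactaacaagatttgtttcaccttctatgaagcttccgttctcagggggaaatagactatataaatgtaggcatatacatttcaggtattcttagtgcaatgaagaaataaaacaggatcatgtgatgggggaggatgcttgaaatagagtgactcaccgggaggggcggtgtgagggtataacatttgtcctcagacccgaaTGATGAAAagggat
SLC1A3: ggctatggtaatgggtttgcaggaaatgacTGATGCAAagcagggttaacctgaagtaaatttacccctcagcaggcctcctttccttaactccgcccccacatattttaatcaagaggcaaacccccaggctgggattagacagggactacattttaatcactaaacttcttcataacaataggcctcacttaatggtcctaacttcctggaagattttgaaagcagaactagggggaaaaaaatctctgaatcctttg

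Of the 3 tested glutamate and aspartate carriers of SLC1A, 1 was higher, 1 was lower and 1 did not pass, against 13.8% higher and 12.1% lower of all genes. SLC1A1, a carrier of glutamate, aspartate and cysteine that neurons and kidney tubules are known for, lies on chromosome 9 at 4490444 to 4587469, forward strand. It had 32.5 and 29.4 CPM in the FOXP4 KO libraries, against 11.7 and 19.5 CPM in the control libraries. The groups did not overlap, and the control libraries were further apart than the KO libraries. SLC1A1 rose by 0.99 on the log2 scale (SE 0.250, edgeR adjusted p = 0.0343). It passed only without control library 2 (0.0132), and the edgeR adjusted p was 0.128 and 0.0813 without FOXP4 KO libraries 1 and 2 and 0.0556 without control library 1.

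SLC1A3, the glutamate carrier of astrocytes, which also brings aspartate into growing cells, had 40.7 and 41.2 CPM in the FOXP4 KO libraries, against 70.3 and 55.8 CPM in the control libraries. It lies on chromosome 5 at 36606355 to 36688334, forward strand. The KO libraries were close together and both lay below the control libraries. SLC1A3 fell by 0.62 on the log2 scale (SE 0.144, edgeR adjusted p = 0.0263). It passed only without control library 2 (0.0184), and the edgeR adjusted p was 0.117 and 0.105 without FOXP4 KO libraries 1 and 2 and 0.0673 without control library 1. SLC1A2, the main glutamate carrier of the forebrain, had under 1 CPM in every library and did not pass.

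Of the neutral amino acid exchangers of SLC1A, SLC1A4 rose and SLC1A5 did not pass. SLC1A4 exchanges alanine, serine, cysteine and threonine and lies on chromosome 2 at 64988477 to 65023865, forward strand. It had 64.2 and 65.6 CPM in the FOXP4 KO libraries, against 16.2 and 34.9 CPM in the control libraries. Both KO values were above both control values, while control library 2 had over 2-fold the value of control library 1. SLC1A4 had a log2 fold change of 1.34 (SE 0.330, edgeR adjusted p = 0.0311). It did not pass without FOXP4 KO library 1 (edgeR adjusted p = 0.0865) or without FOXP4 KO library 2 (0.0834), and the log2 fold change was 0.87 without control library 1 and 1.99 without control library 2.

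SLC1A5, the main glutamine exchanger of many growing cells, lies on chromosome 19 at 46774883 to 46788594, reverse strand. It had 422 and 431 CPM in the FOXP4 KO libraries, against 357 and 551 CPM in the control libraries. The KO values lay between the control values. The log2 fold change was −0.09 (SE 0.207, edgeR adjusted p = 0.768), and it was −0.40 without control library 1 and 0.25 without control library 2.

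None of the 5 tested light chains of the heteromeric exchangers passed edgeR's test, while 3 had an unadjusted p under 0.05, DESeq2 called 1 (SLC7A5) and limma-voom 0. Among all tested genes, 25.8% passed the adjusted p of 0.05, so at least that share had an unadjusted p under 0.05. SLC7A5, the exchanger of leucine and other large neutral amino acids, lies on chromosome 16 at 87830023 to 87869488, reverse strand. It had 379 and 451 CPM in the FOXP4 KO libraries, against 223 and 321 CPM in the control libraries. The groups did not overlap. The log2 fold change was 0.61 (SE 0.197, edgeR adjusted p = 0.0666), and DESeq2 gave an adjusted p of 0.0242. It was 0.34 (0.191) without control library 1, 0.89 (0.0238) without control library 2, and 0.73 (0.106) and 0.48 (0.231) without FOXP4 KO libraries 1 and 2 (edgeR). Pseudogene copies of SLC7A5 make its counts uncertain.

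SLC7A11, the cystine and glutamate exchanger that feeds glutathione synthesis, lies on chromosome 4 at 138164097 to 138242349, reverse strand. It had 143 and 141 CPM in the FOXP4 KO libraries, against 24.2 and 104 CPM in the control libraries. The KO libraries were alike and above both controls, and control library 1 was far below the other 3. SLC7A11 had a log2 fold change of 1.14 (SE 0.580, edgeR adjusted p = 0.189), and it was 0.43 (0.0701) without control library 1 and 2.54 (0.0048) without control library 2.

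SLC3A2, the heavy chain that carries SLC7A5, SLC7A11 and other light chains to the surface, lies on chromosome 11 at 62856102 to 62888875, forward strand. It had 249 and 207 CPM in the FOXP4 KO libraries, against 143 and 218 CPM in the control libraries. The groups overlapped, since FOXP4 KO library 2 lay below control library 2. The log2 fold change was 0.33 (SE 0.212, edgeR adjusted p = 0.282), and it was 0.66 (0.0481) without control library 2 and 0.04 (0.879) without control library 1. The other light chains were SLC7A6 and SLC7A7, which exchange cationic for neutral amino acids, and SLC7A8, which exchanges neutral ones. They had log2 fold changes of −0.31, 0.89 and 0.30 (edgeR adjusted p = 0.0891, 0.0893 and 0.250). SLC7A7 was low, at 1.65 and 1.32 CPM in the FOXP4 KO libraries, against 0.705 and 0.880 CPM in the control libraries. SLC3A1, the heavy chain of the renal cystine carrier, had 6 and 8 counts in the FOXP4 KO libraries, against 4 and 15 counts in the control libraries, and was not tested.

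Among the cationic amino acid transporters, SLC7A3 rose and the other 2 tested genes did not pass. SLC7A3 carries arginine, lysine and ornithine and lies on chromosome X at 70925582 to 70931125, reverse strand. It had 30.6 and 30.7 CPM in the FOXP4 KO libraries, against 6.52 and 14.3 CPM in the control libraries. The KO values were nearly equal and above both control values, which were over 2-fold apart. SLC7A3 had a log2 fold change of 1.56 (SE 0.345, edgeR adjusted p = 0.0235). It did not pass without FOXP4 KO library 1 (edgeR adjusted p = 0.0727) or without FOXP4 KO library 2 (0.0657), and leaving out control library 1 or 2 gave log2 fold changes of 1.08 and 2.22, in that order.

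SLC7A1, the widely expressed carrier of arginine and lysine, had 391 and 483 CPM in the FOXP4 KO libraries, against 340 and 449 CPM in the control libraries, and the groups overlapped (log2 fold change 0.15, edgeR adjusted p = 0.567). SLC7A2, a carrier of arginine known from liver and macrophages, had 17.1 and 15.5 CPM in the FOXP4 KO libraries, against 19.6 and 65.8 CPM in the control libraries. Control library 2 alone stood high. SLC7A2 had a log2 fold change of −1.39 (SE 0.506, edgeR adjusted p = 0.0898), and it was −2.04 (0.00858) without control library 1 and −0.28 (0.264) without control library 2.

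The largest increase of all members was that of SLC43A1, a sodium-independent facilitator of leucine and other large neutral amino acids. It lies on chromosome 11 at 57484534 to 57515786, reverse strand, and had 70.6 and 80.7 CPM in the FOXP4 KO libraries, against 16.1 and 28.7 CPM in the control libraries. Both KO values were well above both control values. SLC43A1 was 3.38-fold higher (log2 fold change 1.76, SE 0.269, edgeR adjusted p = 0.00858). With any single library left out the log2 fold change was between 1.38 and 2.23, and the adjusted p was at most 0.0336. SLC43A2, its relative with like substrates, had 16.3 and 14.4 CPM in the FOXP4 KO libraries, against 18.5 and 18.7 CPM in the control libraries, and did not pass (log2 fold change −0.27, edgeR adjusted p = 0.231). SLC43A3, which carries nucleobases rather than amino acids, had 1.02 and 1.05 CPM in the FOXP4 KO libraries, against 0.254 and 0.625 CPM in the control libraries (log2 fold change 1.21, edgeR adjusted p = 0.107). For SLC43A3 the log2 fold change was 0.70 (edgeR adjusted p = 0.233) without control library 1 and 2.01 (0.0383) without control library 2, and the adjusted p was 0.274 and 0.291 without FOXP4 KO libraries 1 and 2.

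Of the SLC36A carriers, SLC36A4, a carrier of proline and tryptophan, fell. It lies on chromosome 11 at 93144171 to 93197964, reverse strand, and had 22.3 and 20.2 CPM in the FOXP4 KO libraries, against 30.6 and 30.6 CPM in the control libraries. The control values were equal to the digits shown and both KO values lay below them. SLC36A4 fell by 0.52 on the log2 scale (SE 0.136, edgeR adjusted p = 0.0365), and its adjusted p was 0.113, 0.188, 0.0726 and 0.0682 without FOXP4 KO libraries 1 and 2 and control libraries 1 and 2, in that order. SLC36A1, a proton-coupled carrier of glycine, alanine and proline that also sits on lysosomes, had 45.9 and 19.2 CPM in the FOXP4 KO libraries, against 18.2 and 44.4 CPM in the control libraries. Its libraries were over 2-fold apart within each group, and the log2 fold change was 0.05 (edgeR adjusted p = 0.950).

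The SLC6A family, carriers of neurotransmitters, osmolytes and neutral amino acids that use sodium and chloride, had 1 higher and 1 lower gene of 11 tested (9.09% each), against 13.8% and 12.1% of all genes. SLC6A8, the creatine carrier, had the lowest p of all members. It lies on chromosome X at 153688099 to 153696593, forward strand, and had 69.5 and 70.9 CPM in the FOXP4 KO libraries, against 207 and 185 CPM in the control libraries. The spread within each group was small beside the distance between them. SLC6A8 was 2.79-fold lower (log2 fold change −1.48, SE 0.115, edgeR adjusted p = 0.00185), and the adjusted p was at most 0.0136 with any single library left out. Near-identical pseudogene copies of SLC6A8 make its counts uncertain.

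SLC6A6, the taurine carrier, lies on chromosome 3 at 14402576 to 14489349, forward strand. It had 79.4 and 81.9 CPM in the FOXP4 KO libraries, against 49.3 and 53.8 CPM in the control libraries. The groups did not overlap and the spread within each was small. SLC6A6 rose by 0.64 on the log2 scale (SE 0.113, edgeR adjusted p = 0.0120), and its adjusted p was 0.061 without FOXP4 KO library 1 and 0.0683 without FOXP4 KO library 2. On the log2(TPM + 1) scale it did not pass in limma-trend.

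Of the SLC6A amino acid carriers, 0 of 3 tested passed edgeR's test, against 25.8% of all genes. An unadjusted p under 0.05 was found in 0 of them, and DESeq2 and limma-voom called 0. SLC6A9, the glycine carrier, had 67.3 and 81.7 CPM in the FOXP4 KO libraries, against 12.6 and 62.1 CPM in the control libraries. Control library 1 stood far below the other 3. The log2 fold change was 0.99 (SE 0.631, edgeR adjusted p = 0.283), and it was 0.24 (0.341) without control library 1 and 2.56 (0.00661) without control library 2. SLC6A15, a carrier of branched-chain amino acids and proline, had 103 and 88.3 CPM in the FOXP4 KO libraries, against 69.2 and 84.9 CPM in the control libraries (log2 fold change 0.31, edgeR adjusted p = 0.166). The GABA carriers SLC6A11 and SLC6A13 and the betaine carrier SLC6A12 had log2 fold changes between −0.29 and 0.51, and the serotonin carrier SLC6A4 had −0.45, and none of these 4 passed.

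The TPM values, which are scaled by gene length, allowed the levels of different members to be set side by side. SLC1A5 had the highest level in both groups, with 466 and 423 TPM in FOXP4 KO cells, against 360 and 594 TPM in control cells, and it made up 23.9% and 28.9% of the summed TPM of the members. SLC3A2 came next in both groups, with 267 and 213 TPM in FOXP4 KO cells, against 155 and 238 TPM in control cells. The values of SLC1A5 and SLC3A2 did not overlap in either group. SLC7A5, SLC38A2, SLC7A1 and SLC38A1 followed in FOXP4 KO cells, and each of them except SLC38A1 overlapped with the next in that order. SLC43A1 was in place 7 in FOXP4 KO cells, with 68.4 and 74.6 TPM, and in place 15 in control cells, with 16.5 and 30.5 TPM. SLC6A8 was in place 9 in FOXP4 KO cells, with 49.0 and 48.9 TPM, and in place 3 in control cells, with 143 and 126 TPM. In control cells SLC43A1 and SLC6A8 overlapped with the next member in the order, and so did SLC6A8 in FOXP4 KO cells, so these places are not sharp.

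**Figure D3:**
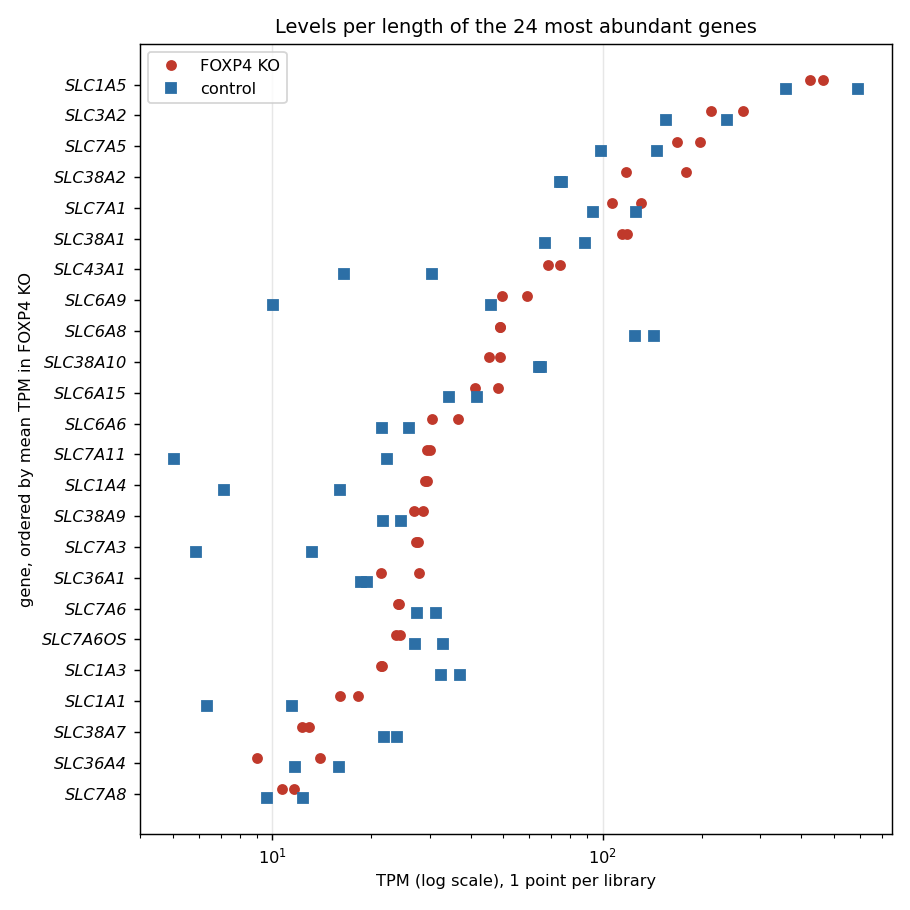
TPM of the 24 most abundant members on a logarithmic horizontal axis, ordered by the mean in FOXP4 KO cells, with 1 red circle for each FOXP4 KO column and 1 blue square for each control column. SLC1A5 heads the list, and SLC6A8 has its circles far to the left of its squares.

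The 19 members found in the TPM table alone were near or at 0. Of these, 7 were listed at 0 in all 4 columns, among them SLC6A14 and SLC7A13, and the other 12 were above 0 in at least 1 column. The highest single value was 0.468 TPM, in SLC38A4, a carrier of neutral and cationic amino acids best known from liver. SLC6A20, a proline carrier, was in the count table with 4 and 10 counts in the FOXP4 KO libraries, against 4 and 5 counts in the control libraries, and was not tested.

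The control libraries stood apart from each other in several members. The 2 control libraries were over 2-fold apart in 7 of the 39 tested members, against 5.7% of all tested genes, and control library 2 was the higher in all 7, against 3.04% of all tested genes. These were SLC6A9 (4.95-fold), SLC7A11 (4.29-fold), SLC7A2 (3.35-fold), SLC43A3 (2.46-fold), SLC36A1 (2.44-fold), SLC7A3 (2.19-fold) and SLC1A4 (2.15-fold). The FOXP4 KO libraries were over 2-fold apart in SLC36A1 alone (2.39-fold), against 3.2% of all tested genes. SLC7A3 and SLC1A4 passed the test with both control libraries in the fit, and the other 5 did not. Both KO libraries lay above both control libraries in SLC6A9, SLC7A11, SLC43A3, SLC7A3 and SLC1A4.

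**Figure D4:**
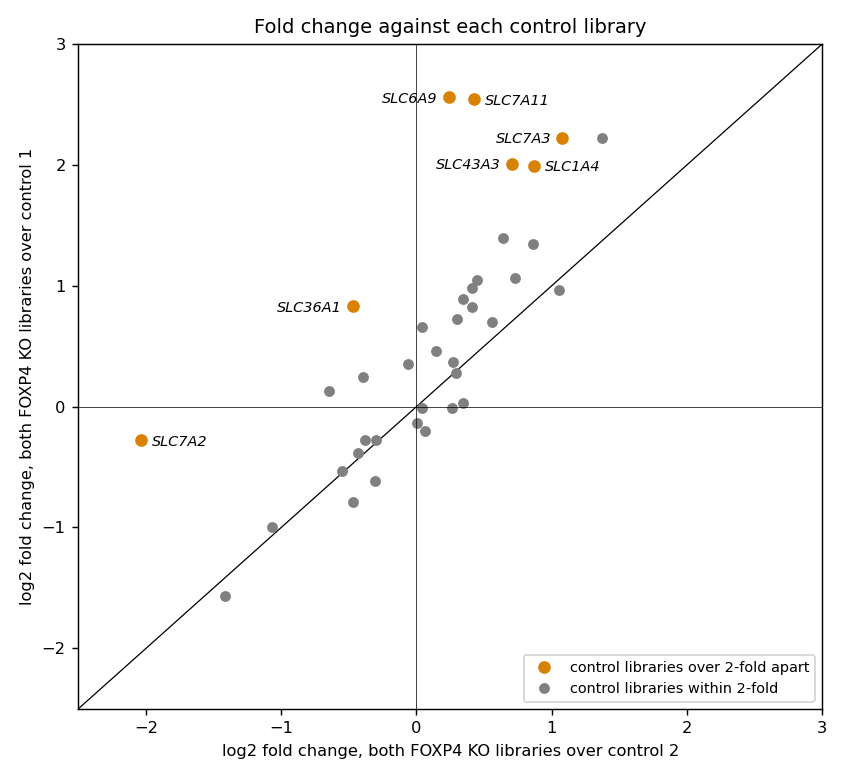
Log2 fold change of 38 of the 39 tested members against control library 1 on the vertical axis and against control library 2 on the horizontal axis, with both FOXP4 KO libraries in each fit. The line marks equal values, and the 7 orange points are the members whose control libraries were over 2-fold apart, all above the line. SLC6A9 had 2.56 against control library 1 and 0.24 against control library 2.

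The ratio of the control libraries differed by over 1.5-fold between the count table and the TPM table in 4 members, SLC36A1, SLC7A2, SLC43A3 and SLC6A12, against 2.6% of all tested genes. For SLC36A1 the TPM values were 27.9 and 21.3 in FOXP4 KO cells, against 18.6 and 19.4 in control cells, without the 2-fold gaps seen in its counts. SLC7A6OS had a log2 fold change of 0.19 in the counts (edgeR adjusted p = 0.384) and −0.30 on the log2(TPM + 1) scale. No source used here names the counting tool, and SLC7A6OS overlaps SLC7A6 on the opposite strand, so reads of the pair may not be told apart.

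Some members lay among neighbors of which many were called in 1 direction, while 13.8% of all tested genes were higher and 12.1% lower. Of the 50 tested genes nearest to SLC6A8 on chromosome X, 29 were lower and 4 higher, with a median log2 fold change of −0.79. Of the 50 nearest to SLC7A5 on chromosome 16, 24 were lower and 2 higher (median −0.61), and SLC7A5 itself had 0.61. Of the 50 nearest to SLC7A11 on chromosome 4, 21 were higher and 0 lower (median 0.46). SLC38A1 and SLC38A2 count among each other's neighbors, and of the 50 nearest to each, 5 were higher and 1 lower (median 0.08). Of the 50 nearest to SLC43A1, 7 were higher and 1 lower (median 0.21). SLC38A3 rose among neighbors of which 15 were lower and 7 higher (median −0.11), and SLC1A3 fell among neighbors of which 12 were higher and 1 lower (median 0.06). The part of position in these results was not tested.

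**Figure D5:**
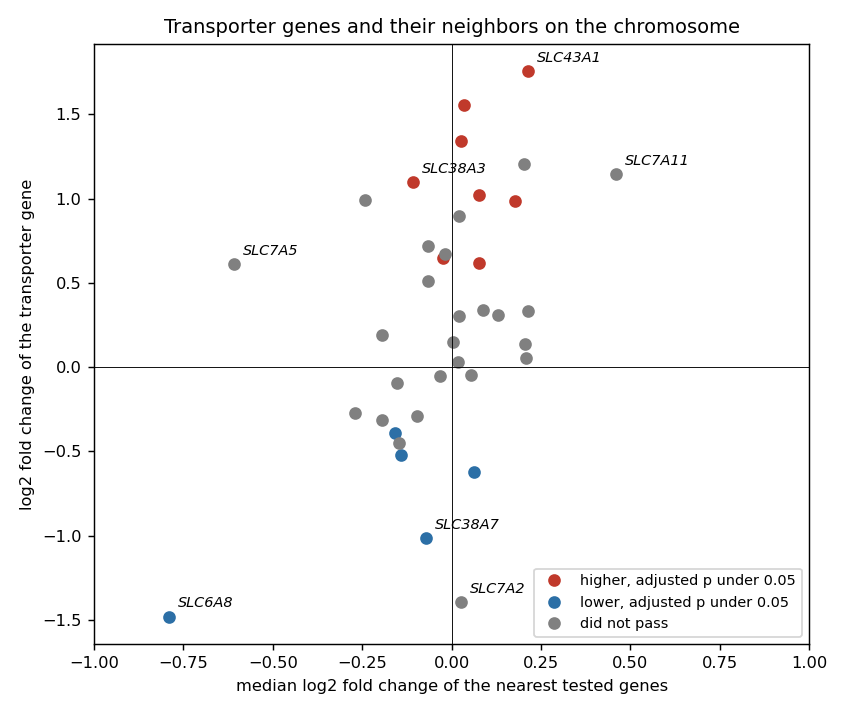
Log2 fold change of 38 of the 39 tested members on the vertical axis against the median log2 fold change of its nearest tested genes, up to 25 on each side, on the horizontal axis. Red, blue and grey mark members called higher, called lower and not passed. SLC6A8 lies at the lower left, with neighbors at −0.79, and SLC7A5 lies above 0 although its neighbors stand at −0.61.

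Genes that act with these carriers were read from lists. Of 39 tested genes of amino acid sensing, the mTORC1 branch, 4 were higher (10.3%) and 7 lower (17.9%), against 13.8% and 12.1% of all genes, with a median log2 fold change of −0.05, against 0.0085 for all genes. FNIP2, a partner of folliculin, and RPS6KB1, the kinase S6K, rose by 0.72 and 0.65 on the log2 scale (edgeR adjusted p = 0.0112 and 0.0151). SESN1, a sestrin, and FLCN, folliculin, had log2 fold changes of −0.82 and −0.70, both lower (edgeR adjusted p = 0.0118 and 0.0134). How many genes of the sensing list passed depended on which library was left out, as it did for all tested genes.

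Of 29 tested genes of the amino acid response, the ATF4 branch, 7 were higher (24.1%) and 4 lower (13.8%), against 13.8% and 12.1% of all genes, with a median log2 fold change of 0.52. VLDLR, a lipoprotein receptor, TRIB3, a pseudokinase, and GCN1 and ATF5, which act upstream of and beside ATF4, had the lowest p. VLDLR and TRIB3 rose by 1.46 and 0.80 on the log2 scale (edgeR adjusted p = 0.00615 and 0.0098), and ATF5 fell by 1.09 (0.00634). GCN1 fell to 331 and 343 CPM in the FOXP4 KO libraries, against 659 and 685 CPM in the control libraries (0.00473). In 10 of these genes control library 2 was over 2-fold above control library 1. How many genes of the response list passed depended on which library was left out, as it did for all tested genes. ATF4, named after its values were seen, had 2310 and 2430 CPM in the FOXP4 KO libraries, against 786 and 1173 CPM in the control libraries, and rose by 1.27 on the log2 scale (edgeR adjusted p = 0.0103).

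Amino acid carriers of other families were split evenly, with 3 higher and 3 lower of 18 tested (16.7% each, against 13.8% and 12.1% of all genes) and a median log2 fold change of −0.13. SFXN3, a mitochondrial serine carrier, rose by 1.43 on the log2 scale (edgeR adjusted p = 0.00407). SLC25A13, the mitochondrial aspartate and glutamate carrier, and SLC25A44, a mitochondrial carrier of branched-chain amino acids, fell by 0.84 and 0.58, and SLC25A29, a mitochondrial carrier of basic amino acids, rose by 0.60 (0.0123, 0.0213 and 0.0278). Which library was left out changed how many of these carriers passed, and it did so for all tested genes too.

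Enzymes that use the carried amino acids were read in the same way. Of 13 tested enzymes of glutamine and glutamate, 4 were higher (30.8%) and 1 lower (7.69%), against 13.8% and 12.1% of all genes (median 0.19). GLS2, a mitochondrial glutaminase, had 22.7 and 28.3 CPM in the FOXP4 KO libraries, against 0.451 and 0.903 CPM in the control libraries, with every KO value far above the controls (log2 fold change 5.21, SE 0.338, edgeR adjusted p = 0.00134). PPAT of purine synthesis rose by 0.66 and CAD of pyrimidine synthesis fell by 0.54 (0.0128 and 0.0206). Of 9 tested genes of glutathione synthesis and use, 1 was higher (11.1%) and 3 were lower (33.3%), against the same shares of all genes (median −0.0053). GCLM, the modifier subunit of the rate-limiting ligase, and GPX1, a glutathione peroxidase, had log2 fold changes of −1.63 and −1.08, both lower, and GGT1, which breaks down glutathione outside the cell, rose by 1.16 (edgeR adjusted p = 0.00208, 0.00708 and 0.00946). Of 8 tested enzymes of branched-chain amino acids, 0 passed edgeR's test, 3 had an unadjusted p under 0.05, and DESeq2 and limma-voom called 0 (median 0.14). Of all tested genes, 25.8% passed the adjusted p of 0.05, so at least that share had an unadjusted p under 0.05.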

How the data were processed

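RNA of 2 FOXP4 KO and 2 control libraries was analysed. The authors deposited raw counts per gene, in a table in which 0 genes have a count of 0, and a second table of TPM values, which the authors scaled by gene length and library total. The tools for alignment and counting were not given in the sources used here. GRCm38 and mm10, both mouse builds, stand in the submitters' processing notes, while all gene names are human. The numbered KO columns of the TPM table were used as a group and not tied to replicates. Low-count genes were removed with filterByExpr, and 14620 of 15218 genes were tested with edgeR 4.0.16 (R 4.3.3; TMM, quasi-likelihood test, Benjamini-Hochberg adjustment over all of them, threshold 0.05). The SE of a fold change was its size over the root of the F statistic. Alternatives were DESeq2 1.42.0, limma 3.58.1 (voom on counts, and limma-trend on TPM of at least 0.5 in 2 libraries, as log2 with a pseudocount of 1 or 0.1), RLE and upper-quartile scaling, no filter, at least 50 counts, a replicate block and each library left out. The edgeR script was tested on simulated data. It recovered 8 of 67 changes of 1.5-fold, 44 of 67 of 2-fold and 65 of 66 of 4-fold, with 5 false calls. The simulation changed only these genes of 14601 tested, none of them with low counts, while 25.8% of all genes passed in the real data. Its recovery may therefore differ from that in the real data. A gene that did not pass may still differ.

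The members and lists were chosen with earlier results of these data known. Full values were given for called members and for SLC3A2, SLC7A5, SLC7A11, SLC1A5, SLC38A1 and SLC38A2, and up to 4 called genes were named per list. ATF4 and members that did not pass and are given with library values were named after their values were seen. Counts over members include 1 gene that is not reported here by name. Gene positions are from GENCODE v29. Promoters are from RefSeq (GRCh38.p14).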

Additional observations from a re-analysis of the deposited data

Results flagged for a closer look

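SLC38A4, a carrier of neutral and cationic amino acids, is not in the count table and was in no test, and it was the only member found in the TPM table alone with both FOXP4 KO columns above both control columns. It was listed at 0.468 and 0.316 TPM in FOXP4 KO cells, a mean of 0.392 TPM, against 0 and 0.143 TPM in control cells. No fold is given, because a control column was listed at 0. All of these values are near 0. The share of all genes with this order of TPM columns was not worked out, so it is not read as a difference.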

How the results depend on the processing

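The 13 called members kept their direction under every alternative run. DESeq2, limma-voom, RLE scaling, no filter and the filter at 50 counts kept all 13 calls, and DESeq2 added SLC7A5. Upper-quartile scaling lost SLC36A4 and SLC38A10 (edgeR adjusted p = 0.0595 and 0.0714), which left 3 lower members, and split all genes into 2383 higher and 1368 lower, against 2013 and 1765. limma-trend lost SLC1A1, SLC36A4 and SLC6A6 on log2(TPM + 1), and also SLC38A1 on log2(TPM + 0.1), which left 5 higher members. Among members that did not pass, the log2 fold change changed sign with upper-quartile scaling in SLC6A13 (0.023) and SLC6A17 (0.029), and with log2(TPM + 1) and log2(TPM + 0.1) in SLC6A16 (−0.023 and −0.029) and SLC7A6OS (−0.30 and −0.31). The cause was not tested.

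With 1 library left out, 2 to 12 members were higher and 2 to 3 lower, and 639 to 2013 of all genes were higher and 467 to 1614 lower. The sensing list had 0 to 6 higher and 1 to 5 lower, the response list 2 to 18 and 2 to 4, and the carriers of other families 1 to 3 and 0 to 4. Log2 fold changes that crossed 0 ran from −0.40 to 0.25 for SLC1A5, −0.71 to 0.83 for SLC36A1, −0.015 to 0.043 for SLC38A6, −0.64 to 0.13 for SLC6A11, −0.20 to 0.064 for SLC6A13, −0.0086 to 0.26 for SLC6A16, −0.13 to 0.0061 for SLC6A17 and −0.065 to 0.35 for SLC7A1. A lone library left in a group was assumed to vary like the other group.

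The replicate numbers are not said to mark a shared batch, so they were not taken as pairs in the main fit. Over all tested genes, libraries of the same replicate number did not deviate together (correlation −0.0026). With the replicate number as a block, 11 members were higher and 4 lower, while 13.5% of all tested genes were higher and 11.2% lower. SLC38A10 was lost (edgeR adjusted p = 0.0693), and SLC6A9, SLC7A11 and SLC7A5 were gained (0.0367, 0.0335 and 0.0195). The response list had 14 higher in the same fit. With 2 libraries a group, differences near the threshold depend on each library.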
